A study of Mus musculus with 6 samples.

Results

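Secreted modulators of BMP and activin signaling were followed in lung endothelial cells of mouse pups after endothelial deletion of Smad4. They are 9 genes chosen by name, Bmper, Nog, Grem1, Chrdl1, Fst, Fstl1, Fstl3, Twsg1 and Crim1, out of 24951 genes in the counts, and each matched 1 row by its symbol. The proteins act outside the cell, where most of them bind BMP or activin dimers before these reach their receptors. Noggin, gremlin and the chordin family keep BMPs from their receptors, follistatin and its relative FSTL3 hold activins, and BMPER and twisted gastrulation can weaken or strengthen BMP signaling depending on their partners. In vessels BMPs act through SMAD proteins that work together with SMAD4, so these genes sit upstream of the deleted one. Crim1 encodes a membrane-anchored protein with chordin-type repeats, which makes it the member that the word secreted describes least well.

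The mutant pups carried floxed Smad4 on both alleles and Cdh5-CreERT2, a tamoxifen-inducible Cre driven by the promoter of the endothelial cadherin gene Cdh5. The control pups carried the same floxed alleles and no Cre, although their genotype label reads wildtype, so no group has Cre with intact Smad4. Lungs were taken at postnatal day 5 and digested, CD31-positive cells were pulled down on antibody-coated beads, and polyadenylated RNA was sequenced from 3 mutant and 3 control libraries, which the labels call independent biological samples. The labels give neither the dose nor the day of tamoxifen, do not explain a tag that all 6 library names share, and in 1 sentence call the mice HHTf/f and HHTiECKO.

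Reads assigned to genes came to 16041786 to 20172318 in the mutant and 14093564 to 21113926 in the control libraries. Smad4 was 2.13-fold lower in the mutants, at 85.3 ± 11.1 CPM in mutant and 182 ± 5.74 CPM in control libraries (SD, n = 3 each; CPM is counts scaled to the size of the library). Summed markers per library ranged from 11171 to 11401 CPM in mutants and 11048 to 12139.8 CPM in controls for 12 endothelial genes, among them Pecam1, which encodes CD31. Transcripts known as markers of other cell types were in the pull-down too. The 12 fibroblast markers summed to 1355 to 2013 CPM in mutants and 1078 to 1584 CPM in controls, the 12 smooth muscle and pericyte markers to 426 to 548 CPM in mutants and 297 to 442 CPM in controls, and the 12 alveolar epithelial markers to 3091 to 3582 CPM in mutants and 2285 to 4555 CPM in controls. The sums of 7 lymphatic endothelial markers did not overlap between groups, with 1529 to 1594 CPM in mutants and 1169 to 1415 CPM in controls. Most of each sum was 1 gene, Lyve1, at 968 ± 17.2 CPM in mutants and 713 ± 50.1 CPM in controls. Without it the sums of the groups would overlap. The other markers went in both directions, and the median log2 fold change of the 6 tested markers was -0.03. Lyve1, the only one called, rose by 0.44 on the log2 scale (edgeR adjusted p = 0.0166). Its call was lost when control replicate 2, mutant replicate 1 or mutant replicate 2 was left out (edgeR adjusted p = 0.0622, 0.07 and 0.0904). None of the 48 endothelial, fibroblast, smooth muscle and pericyte, and alveolar markers was at 0 in all libraries. The part of lymphatic cells in the results was not tested. Because the RNA is from bulk cells, fewer cells of a type and less RNA per cell cannot be told apart.

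Of the 9 genes, 8 were detected in every library, where detected means at least 3 counts. With at least 10 counts as the floor, 7 were. Levels of different genes are compared as RPKM, CPM divided by the merged exon length in kilobases. Fstl1, a secreted glycoprotein of the SPARC family that can bind BMP4 and is required for lung development in mice, was by far the most abundant, at 145 ± 0.0226 RPKM in mutant and 130.5 ± 11.8 RPKM in control libraries (SD, n = 3 each). The mutant SD is below counting error and does not measure the spread between samples. The mean level of Fstl1 was above that of 99% of genes with a count. Twsg1, which encodes twisted gastrulation, stood at 27.5 ± 1.64 RPKM in mutants and 24 ± 1.94 RPKM in controls, and Crim1 at 20.6 ± 1.5 RPKM in mutants and 20.1 ± 1.61 RPKM in controls. For scale, Pecam1 was at 276 ± 3.5 RPKM in mutants and 252 ± 14.7 RPKM in controls.

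The remaining members were scarcer. Fstl3 averaged 7.82 ± 1.94 RPKM in mutant and 6.58 ± 1.75 RPKM in control libraries, and Bmper 2.79 ± 0.86 RPKM in mutants and 2.19 ± 0.638 RPKM in controls. Nog, the gene of noggin, was at 1.3 ± 0.235 RPKM in mutants and 1.23 ± 0.228 RPKM in controls. These 3 genes lay at percentiles 65, 46.1 and 37.7 of genes with a count. Fst averaged 0.239 RPKM in mutants and 0.19 RPKM in controls, Grem1 0.192 RPKM in mutants and 0.183 RPKM in controls, and Chrdl1 0.00791 RPKM in mutants and 0.0243 RPKM in controls.

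The order Fstl1, Twsg1, Crim1, Fstl3, Bmper, Nog held in all 6 libraries, as did the last place of Chrdl1. Among neighbours in this order only Fst and Grem1 overlapped over the libraries, with Fst the higher in 3 of 6. Fstl1 was 5.34 times Twsg1, and Twsg1 was 1.27 times Crim1. The step from Nog to Fst was 5.89 times. With the longest transcript as the gene length, an alternative added after seeing the data, the steps became 5.49, 1.6 and 3.75 times. Of the RPKM summed over the 9 genes, Fstl1 made up 70.6% ± 1.3 in mutants and 70.5% ± 2.13 in controls, while Nog made up 0.632% ± 0.106 in mutants and 0.672% ± 0.177 in controls.

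**Figure D1:**
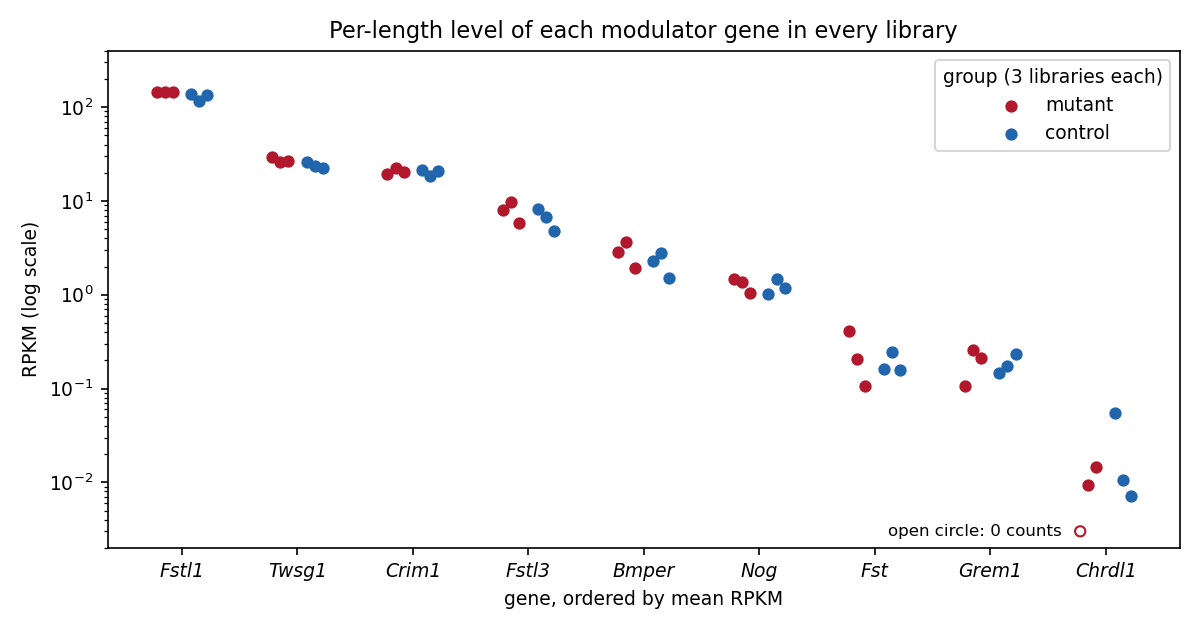
RPKM of the 9 modulator genes on a log axis, with 1 point for each mutant and control library and an open circle for a library with 0 counts. Fstl1 sits at 117 to 145 RPKM in every library, the ranges of Fst and Grem1 overlap, and Chrdl1 is lowest throughout.

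None of the members passed the test between the groups. Of 8 tested genes, 0 rose and 0 fell at an adjusted p under 0.05 (edgeR quasi-likelihood test, Benjamini-Hochberg over all 14934 tested genes), and 0 had an unadjusted p under 0.05. Over all tested genes 3.27% were called, and 14% had an unadjusted p under 0.05. DESeq2 and limma-voom also called 0 members, 0 of them at an unadjusted p under 0.05, where they called 4.83% and 2.96% of all genes. The median log2 fold change of the 8 members was 0.17, beside -0.0024 over all tested genes. In 2 of the 8, Fstl1 and Twsg1, all mutant libraries lay on one side of all control libraries, against 20.6% of all tested genes. A missed threshold does not show equal levels, so the 95% interval of each fold change is given.

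The abundant members had narrow intervals. Fstl1 (ENSMUSG00000022816.11, GRCm38 chromosome 16, 37776873 to 37836514, plus strand) read 712, 712 and 711 CPM in mutant replicates 1, 2 and 3, against 679, 574 and 669 CPM in control replicates 1, 2 and 3. Mutants were the higher group, and control replicate 2, the shallowest library, was lowest. The mutant libraries had an SD of 0.111 CPM, which is below counting error and so no measure of the spread between samples. Their summed count of 38885 has an exact Poisson interval of 38499 to 39273. The fold was 1.11 with a 95% interval of 0.97 to 1.27 (edgeR adjusted p = 0.493). Twsg1 (ENSMUSG00000024098.6, chromosome 17, 65921972 to 65951226, minus strand) read 151, 135 and 139 CPM in mutant replicates 1, 2 and 3, against 135, 122 and 115 CPM in control replicates 1, 2 and 3. Mutant replicate 2 and control replicate 1 almost met. It had the smallest p of the members, with a fold of 1.15 (interval 0.997 to 1.32, edgeR adjusted p = 0.371). The 12 endothelial markers went in both directions, with 0 called higher, 2 called lower and a median log2 fold change of 0.02. Pecam1 and Cdh5 had folds of 1.09 and 1.12 with no overlap between groups and no call (edgeR adjusted p = 0.502 and 0.395), while the receptor genes Tek and Flt1 fell by 0.50 and 0.40 on the log2 scale (edgeR adjusted p = 0.0128 and 0.0337). Tek, Flt1 and Lyve1 were named after their values were seen. Tek missed the threshold when control replicate 3 or mutant replicate 2 was left out (edgeR adjusted p = 0.054 and 0.076), and Flt1 when any 1 library but control replicate 1 was (edgeR adjusted p 0.0742 to 0.162), with the replicate block (0.064) and with sex as a covariate (0.0591). Whether the share of endothelial cells has a part in the values of Fstl1 and Twsg1 was not tested.

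Crim1 (ENSMUSG00000024074.8, chromosome 17, 78200248 to 78376592, plus strand) encodes a protein that binds BMPs through its chordin-type repeats. It shares 2.05% of its exon bases with Fez2 on the opposite strand. It read 116, 133 and 121 CPM in mutant replicates 1, 2 and 3, against 128, 109.9 and 124 CPM in control replicates 1, 2 and 3. The groups overlapped in part, with mutant replicate 2 above all controls and control replicate 2 below all mutants, and the fold was 1.02 (interval 0.885 to 1.18, edgeR adjusted p = 0.918). For these 3 genes the upper bound of the interval was at most 1.32-fold and the lower bound at least 0.885-fold.

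The RefSeq promoter windows (GRCm38.p6, from 250 bases before the start of the gene to 50 after it) were searched on both strands for a pair of short sequences known as SMAD-binding motifs, GGCGCC, which is its own reverse complement, and GTCTG, whose reverse complement is CAGAC. No match of one motif overlapped a match of the other in the members' windows. Windows were found for 6 of the 9 members, Bmper, Grem1, Fstl1, Fstl3, Twsg1 and Crim1. GGCGCC was in 1 of them, Grem1, and GTCTG in 3, Grem1, Fstl3 and Twsg1. Over all 32851 windows, 11.9% held GGCGCC and 49.6% held GTCTG. The windows of the members whose groups did not overlap, Twsg1 with motif matches and Fstl1 with none, are shown 5′ to 3′ on the strand of the gene, with motif matches in capitals. A match is a description of the letters and no evidence of binding.
Twsg1, chr17:65951138-65951437, minus strand: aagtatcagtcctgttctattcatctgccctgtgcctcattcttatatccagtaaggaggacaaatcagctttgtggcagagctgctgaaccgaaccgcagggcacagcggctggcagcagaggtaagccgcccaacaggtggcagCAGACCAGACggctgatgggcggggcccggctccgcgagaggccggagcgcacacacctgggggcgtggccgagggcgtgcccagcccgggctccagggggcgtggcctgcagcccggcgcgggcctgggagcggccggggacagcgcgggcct
Fstl1, chr16:37776805-37777104, plus strand: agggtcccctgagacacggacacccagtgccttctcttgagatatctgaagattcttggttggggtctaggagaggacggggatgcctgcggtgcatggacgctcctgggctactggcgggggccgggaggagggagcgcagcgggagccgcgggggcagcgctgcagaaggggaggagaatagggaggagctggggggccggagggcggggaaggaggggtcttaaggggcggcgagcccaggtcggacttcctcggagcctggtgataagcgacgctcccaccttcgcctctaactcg

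Bmper (ENSMUSG00000031963.8, chromosome 9, 23223076 to 23485200, plus strand), which encodes a BMP-binding protein first known from endothelial precursor cells, varied more between libraries than between groups. It read 13.7, 17.6 and 9.27 CPM in mutant replicates 1, 2 and 3, against 11.1, 13.4 and 7.28 CPM in control replicates 1, 2 and 3. In each group replicate 2 was highest and replicate 3 lowest, and the ranges overlapped. The fold was 1.28 (interval 0.823 to 1.98, edgeR adjusted p = 0.629). Summed fibroblast markers read 1719.9, 2013 and 1355 CPM in mutant replicates 1, 2 and 3, against 1510.5, 1584 and 1078 CPM in control replicates 1, 2 and 3. The order of the 6 libraries by Bmper and by this sum, a list picked from 9 marker lists after the values were seen, was the same. Per 1000 CPM of fibroblast markers, Bmper stood at 7.84 ± 0.95 CPM in mutants and 7.52 ± 0.862 CPM in controls (SD, n = 3 each). Of the 12 fibroblast markers, 1 was called higher, Col14a1, a collagen gene named here after its values were seen, and 0 lower, with a median log2 fold change of 0.21. Col14a1 is part of the sum, and so of the ratio. It lowers the ratio more in mutants than in controls, so the closeness of the 2 means depends in part on it. Col14a1 read 242, 235 and 202 CPM in mutants, against 89.9, 98 and 92.3 CPM in controls, in the order of the replicates. Without it, control replicate 2 would stand above mutant replicate 1 by the sum but not by Bmper, so the same order depends on Col14a1. The part of fibroblast RNA in the level of Bmper was not tested.

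Fstl3 (ENSMUSG00000020325.10, chromosome 10, 79777272 to 79782630, plus strand), which encodes an activin-binding protein of the follistatin family, read 19.6, 23.6 and 14.1 CPM in mutant replicates 1, 2 and 3, against 20.3, 16.3 and 11.7 CPM in control replicates 1, 2 and 3. Only mutant replicate 2 lay above the control range, and replicate 3 was lowest in each group. The fold was 1.18 (interval 0.817 to 1.72, edgeR adjusted p = 0.70). Within each group the libraries had the same order by Fstl3 as by summed alveolar epithelial markers, a list also picked after the values were seen. They read 3270.3, 3582 and 3091 CPM in mutant replicates 1, 2 and 3, against 4555, 3729 and 2285 CPM in control replicates 1, 2 and 3. The part of epithelial RNA in the level of Fstl3 was not tested. The level is also uncertain because 47.3% of the merged exon bases of Fstl3 are shared with Prss57 on the opposite strand. Without strand, reads from the 2 genes cannot be told apart there. Prss57 itself stood at 11.4 ± 1.6 CPM in mutants and 10.7 ± 2.28 CPM in controls.

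**Figure D2:**
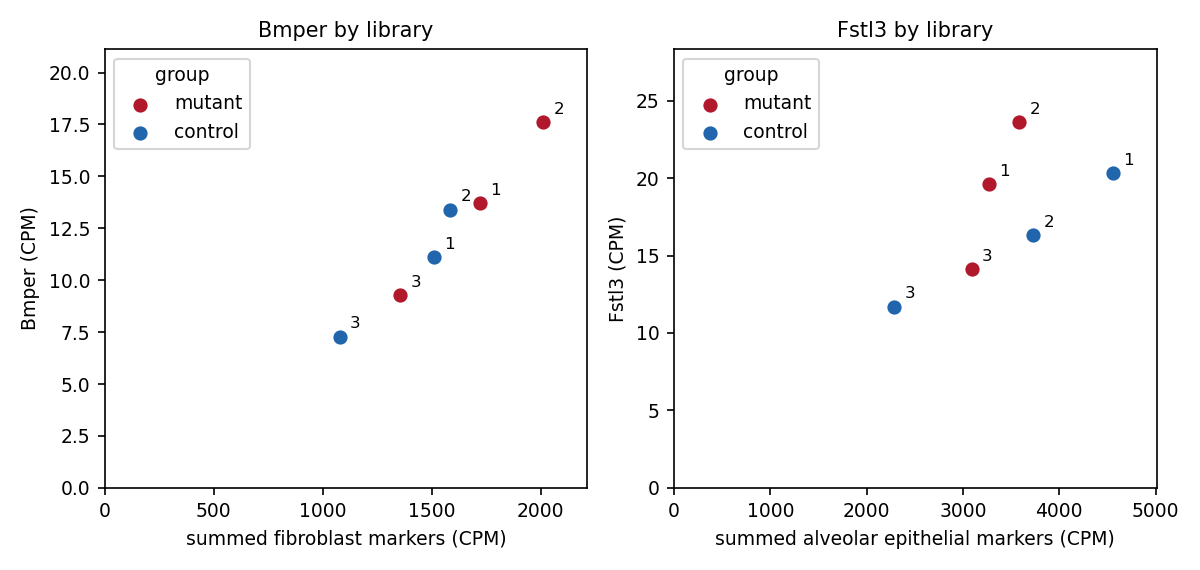
Bmper in CPM against summed fibroblast markers in CPM (left) and Fstl3 in CPM against summed alveolar epithelial markers in CPM (right), 1 point a library with its replicate number. Bmper and the fibroblast sum rank the 6 libraries alike only with Col14a1 in the sum, while Fstl3 and the epithelial sum do so only within a group.

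Nog, Fst, Grem1 and Chrdl1 rest on few reads. Nog (ENSMUSG00000048616.4, chromosome 11, 89300638 to 89302332, minus strand) had 46, 37 and 36 counts in mutant replicates 1, 2 and 3, against 37, 35 and 42 counts in control replicates 1, 2 and 3. The groups overlapped, with a fold of 1.06 (interval 0.705 to 1.6, edgeR adjusted p = 0.918). A difference of the size of that of Smad4 would lie outside this interval.

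Fst (ENSMUSG00000021765.9, chromosome 13, 114452290 to 114458951, minus strand), the gene of the activin trap follistatin, had 34, 15 and 10 counts in mutant replicates 1, 2 and 3, against 16, 16 and 15 counts in control replicates 1, 2 and 3. Mutant replicate 1 alone was high, and the coefficient of variation was 64% in mutants against 26.9% in controls. The log2 fold change was 0.36 (interval -0.70 to 1.41, edgeR adjusted p = 0.791), and without mutant replicate 1 it was -0.29. A transcript antisense to Fst, Gm47040, shares 2.51% of its exon bases. Grem1 (ENSMUSG00000074934.3, chromosome 2, 113746164 to 113758646, minus strand), the gene of gremlin, had 8, 17 and 18 counts in mutant replicates 1, 2 and 3, against 13, 10 and 20 counts in control replicates 1, 2 and 3. The sums were 43 counts in mutants and 43 in controls, each with an exact Poisson interval of 31.1 to 57.9 that covers counting error only. Its fold was 1.03 (interval 0.555 to 1.93, edgeR adjusted p = 0.972), which does not bound a 1.5-fold difference in either direction.

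Chrdl1 (ENSMUSG00000031283.16, chromosome X, 143285674 to 143394262, minus strand), which encodes a chordin-like BMP antagonist, was the member not detected in every library. It had 0, 1 and 2 counts in mutant replicates 1, 2 and 3, against 8, 1 and 1 counts in control replicates 1, 2 and 3. Control replicate 1 alone reached the floor of 3 counts, which corresponds to 0.14 to 0.214 CPM per library. The gene did not pass the low-count filter and was not tested in the main fit, so these counts neither show nor exclude a difference.

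**Figure D3:**
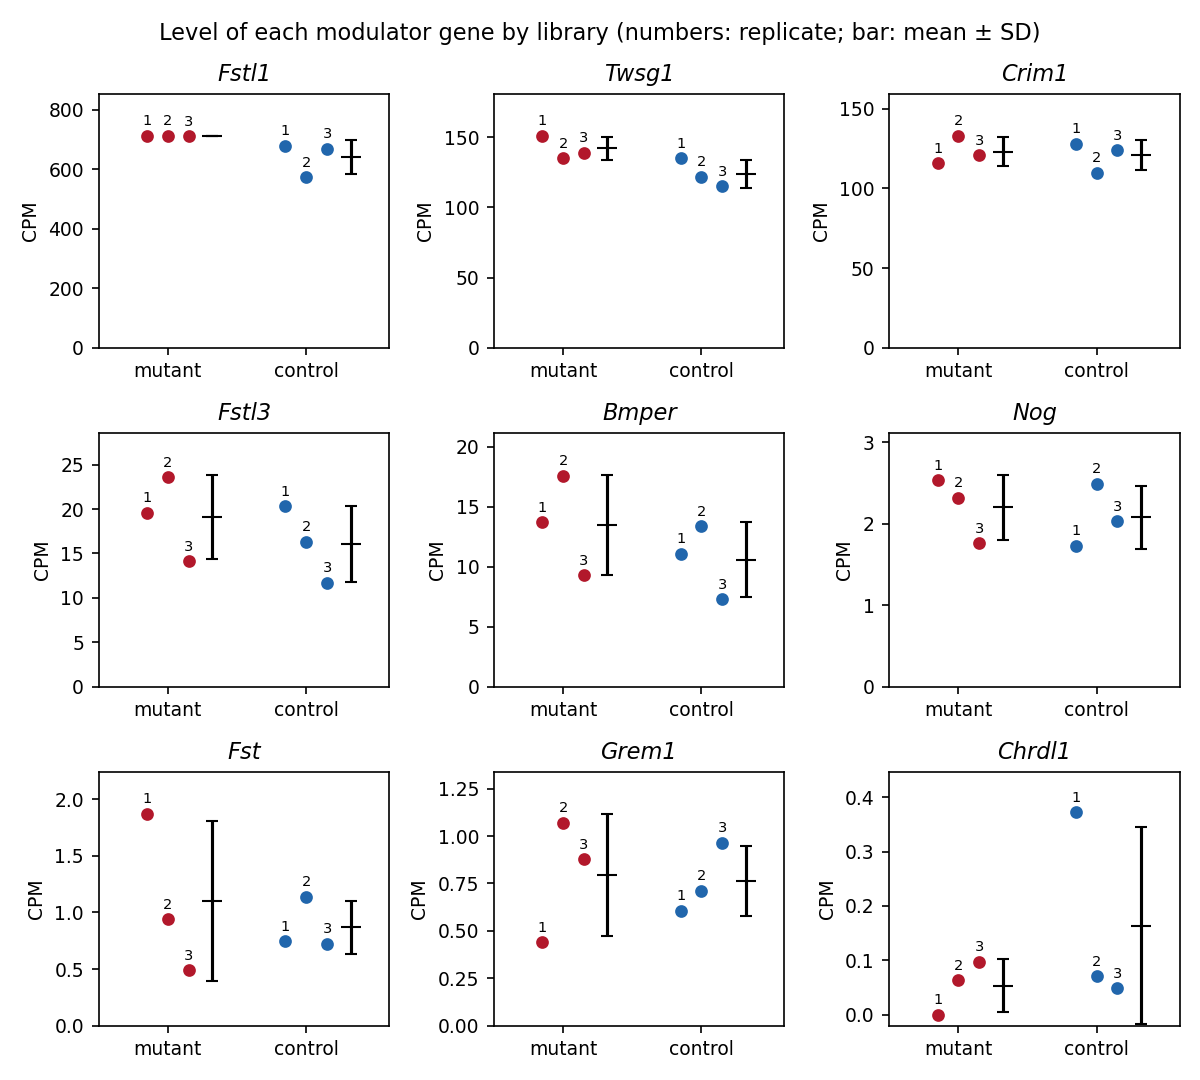
CPM of each modulator gene in mutant libraries (left, red) and control libraries (right, blue), numbered by replicate, with mean ± SD as a bar. All mutant points lie above all control points for Fstl1 and Twsg1, and the groups overlap for the other 7 genes.

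Ligand genes of the same pathway were among those called. Of 17 tested ligand genes of the BMP, activin and TGF-beta families, 4 rose, 1 fell and 12 did not pass, where 1.93% of all tested genes rose and 1.34% fell. Inhbb, the activin beta B subunit held by follistatins, read 148, 169 and 113 CPM in mutant replicates 1, 2 and 3, against 40.8, 51.9 and 33.3 CPM in control replicates 1, 2 and 3. It was 3.42-fold higher in the mutants (log2 fold change 1.77, SE 0.20, edgeR adjusted p = 0.00275), with no overlap between groups. Inhba, the beta A subunit, rose 2.94-fold (9.68 ± 1.19 CPM in mutants and 3.26 ± 1.24 CPM in controls, edgeR adjusted p = 0.00833). Bmp2 rose 1.98-fold, to 25 ± 5.1 CPM in mutants against 12.6 ± 0.78 CPM in controls, and Bmp7 rose 4.19-fold, to 5.61 ± 1.51 CPM in mutants against 1.33 ± 0.289 CPM in controls (edgeR adjusted p = 0.00784 and 0.00326). Both are known ligands of noggin and gremlin. Bmp6 fell, to 133 ± 3.67 CPM in mutants against 174 ± 2.22 CPM in controls (edgeR adjusted p = 0.0176). It was no longer called when control replicate 3 or any 1 mutant library was left out (edgeR adjusted p 0.0519 to 0.083). Bmp4 stood at 47.9 ± 1.6 CPM in mutants and 41 ± 6.92 CPM in controls (edgeR adjusted p = 0.479). Whether the changes of ligands differ from those of the modulators was not tested.

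Ligand and binding protein were set side by side per length, in pairs chosen after the values were seen. Inhba and Inhbb together came to 35.2 ± 6.51 RPKM in mutants and 10.4 ± 2.05 RPKM in controls, while Fst and Fstl3 together came to 8.06 ± 2.01 RPKM in mutants and 6.77 ± 1.75 RPKM in controls. The ratio of activin subunit to follistatin RPKM was 4.34, 4.15 and 4.76 in mutant replicates 1, 2 and 3, against 1.19, 1.82 and 1.73 in control replicates 1, 2 and 3. The lowest mutant lay above the highest control. Most of the activin sum was Inhbb, at 33.7 ± 6.65 RPKM in mutants and 9.87 ± 2.2 RPKM in controls. Most of the follistatin sum was Fstl3, at 7.82 ± 1.94 RPKM in mutants and 6.58 ± 1.75 RPKM in controls. The pair was chosen with the calls of Inhbb and Inhba known, so the separation restates those calls and adds no support to them. For Bmp2, Bmp4 and Bmp7 over Nog and Grem1 the ratio was 18.1, 19.3 and 23.2 in mutant replicates 1, 2 and 3, against 21.5, 13.8 and 13 in control replicates 1, 2 and 3, and the groups overlapped. Most of that BMP sum was Bmp4, which was not called, at 21.3 ± 0.713 RPKM in mutants and 18.3 ± 3.08 RPKM in controls. The sum leaves out Bmp6, which was called lower and was more abundant than Bmp4 in both groups. Bmp6 stood at 34.1 ± 0.941 RPKM in mutants and 44.7 ± 0.57 RPKM in controls. The higher BMP sum of the mutants therefore holds only for the 3 genes in it. Neither difference in ratio was tested. These are ratios of transcripts, and the uncertainty of Fstl3 from its shared exons carries into the first. The second divides by genes with few reads, Nog at 35 to 46 and Grem1 at 8 to 20 counts per library. Its overlap between groups therefore does not show equal ratios.

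**Figure D4:**
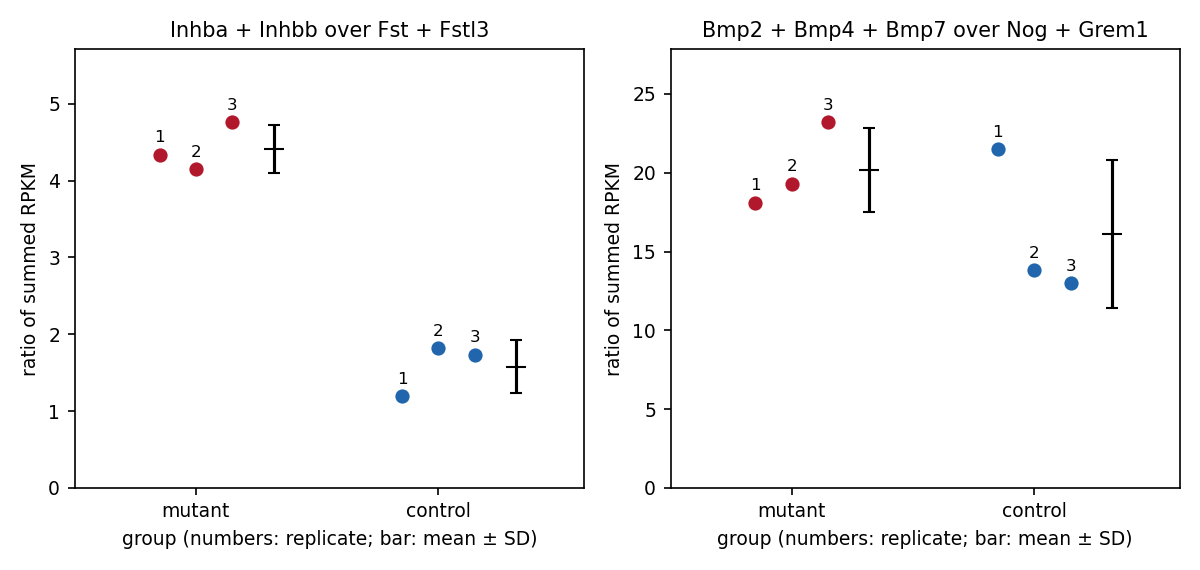
Ratio of summed RPKM of activin subunit genes to follistatin genes (left) and of 3 BMP genes to Nog and Grem1 (right) in each library, mutants left of controls, with mean ± SD as a bar. The activin ratio is 4.15 to 4.76 in mutants and 1.19 to 1.82 in controls, and the BMP ratios overlap.

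Calls among other extracellular modulators were about as frequent as over all genes. Of 29 further genes of this kind, 21 were tested, of which 1 rose, 0 fell and 20 did not reach the threshold, and 3 had an unadjusted p under 0.05. That is 4.76% called, near the 3.27% of all tested genes (DESeq2 called 1 lower, limma-voom 0). Their median log2 fold change was -0.17. The gene that rose was Bgn, which encodes the matrix proteoglycan biglycan, at 380 ± 38.2 CPM in mutants and 258 ± 8.84 CPM in controls (fold 1.47, edgeR adjusted p = 0.00885). Sost, the sclerostin gene of the DAN family to which gremlin belongs, had 0.322 ± 0.355 CPM in mutants and 1.97 ± 0.971 CPM in controls. The groups did not overlap in CPM, and it was not called (edgeR adjusted p = 0.0843). It was called lower in 3 of 12 alternatives, among them DESeq2 (adjusted p = 0.00484). Over all alternatives the adjusted p reached 0.332, in edgeR without mutant replicate 2. Chrd, the gene of chordin, was at 1.83 ± 0.241 CPM in mutants and 2.37 ± 0.349 CPM in controls, and Bmp1, a protease that cleaves chordin, at 198 ± 10.3 CPM in mutants and 197 ± 21.5 CPM in controls (edgeR adjusted p = 0.549 and 0.972). Chrdl2 had 0 counts in every library.

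Among receptors calls of the main fit went in both directions, and among targets downward. Of 15 tested receptor and co-receptor genes, 1 rose, 2 fell and 12 did not pass, where 1.93% of all tested genes rose and 1.34% fell. Bambi, a decoy receptor for BMPs and activins, rose to 87.9 ± 11.7 CPM in mutants against 40.3 ± 0.477 CPM in controls, and Bmpr2, the main BMP type II receptor, fell to 411 ± 95.6 CPM in mutants against 968 ± 76.5 CPM in controls (edgeR adjusted p = 0.000758 and 0.00524). Acvrl1, the gene of the endothelial type I receptor ALK1, also fell, to 706 ± 23.2 CPM in mutants against 970.3 ± 80.6 CPM in controls (edgeR adjusted p = 0.0175). It missed the threshold when control replicate 3, mutant replicate 1 or mutant replicate 2 was left out (edgeR adjusted p = 0.0736, 0.0793 and 0.103). Of 21 tested genes known as BMP or TGF-beta targets, 0 rose, 4 fell and 17 did not pass, against the same shares over all genes, with a median of -0.18. Those that fell were Gja4, Id2, Tmem100 and Atoh8, with log2 fold changes of -0.91, -0.58, -0.93 and -0.60. Atoh8 was called in none of the 6 fits without 1 library (edgeR adjusted p 0.0722 to 0.164), nor with the replicate block (0.0755) or sex as a covariate (0.0732). With sex as a covariate 3 targets fell. Tmem100 was not called when control replicate 1, control replicate 3, mutant replicate 1 or mutant replicate 2 was left out (edgeR adjusted p 0.0643 to 0.159), nor Id2 without control replicate 2 or mutant replicate 2 (edgeR adjusted p = 0.0514 and 0.0538). Id1, a direct SMAD target, stood at 108 ± 17.7 CPM in mutants and 123 ± 10.8 CPM in controls (edgeR adjusted p = 0.564). Smad6 was at 227 ± 35.5 CPM in mutants and 336 ± 49.2 CPM in controls, with no overlap between groups and no call (edgeR adjusted p = 0.0656). It was called lower in 5 of 12 alternatives. In 9 of the 21 targets the groups did not overlap, against 20.6% of all tested genes. Of these, Tgfbi and Ctgf, named after their values were seen, were higher in mutants, and the rest lower. Tgfbi and Ctgf rose by 0.53 and 0.56 on the log2 scale with no call (edgeR adjusted p = 0.0635 and 0.362).

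**Figure D5:**
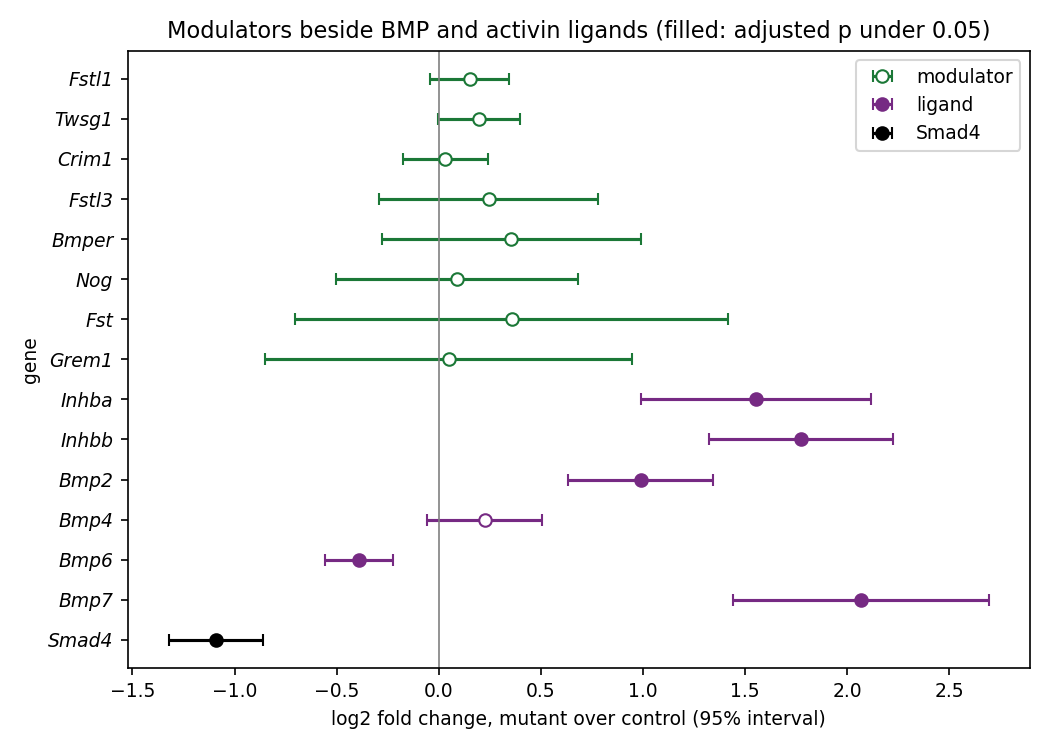
Log2 fold change of mutant over control with its 95% interval for the 8 tested modulators (green), 6 ligand genes (purple) and Smad4 (black), filled where the adjusted p is under 0.05. Every modulator interval includes 0, and 5 of the 6 ligands are called.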

How the data were processed

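The deposited values are raw counts per gene and library, with no normalization, and the authors deposited them per library and as 1 table, and 0 values differed between the 2 forms. Per the submitters' processing notes the build was mm10, and DESeq2 is named with no role. For the aligner, counter, annotation and use of strand, details were not given in the sources used here. Per library, 53.9% to 58.2% of reads fell in no feature and 0.288% to 0.366% were ambiguous, and these were set aside.

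The tests on the counts used edgeR 4.0.16 under R 4.3.3 (filterByExpr, TMM factors, robust quasi-likelihood F test, two-sided, all 6 libraries, no covariate, Benjamini-Hochberg adjustment), which left 14934 of 24951 genes. Each SE was taken from the fold change and its F value, and 95% intervals from the t distribution of the same fit. CPM used TMM-scaled library sizes, and RPKM the merged exon length in GENCODE M21 (GRCm38, the assembly of mm10), matched by symbol. The alternatives were DESeq2 1.42.0, limma-voom (limma 3.58.1), upper-quartile factors, no low-count filter, a replicate block, sex as a covariate and leaving out each library. Sex was read from Xist and 4 Y-linked genes, which gave 1 male and 2 female libraries in each group. Fits were also run on simulated data, whose outcome is not given here and is used for no result. Replicates differed by more than sampling noise (chi-square per degree of freedom at least 12.3).

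The members and lists were chosen with earlier results of these data known. The text could name the members, Smad4, fixed ligand, receptor, target and modulator genes, the called list genes with the smallest p, and main cell type markers. Of 190 list symbols 2 matched through an older symbol and 1 had no match. The printed marker sums leave out the mesothelial (96.6 to 169.9 CPM over the libraries), airway (336 to 473), leukocyte (796 to 993) and erythroid and platelet lists (50.2 to 73.3).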

Additional observations from a re-analysis of the deposited data

How the results depend on the processing

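None of the members was called under any of the 12 alternatives, and Bmper, Fstl1, Fstl3 and Twsg1 kept a positive log2 fold change in all of them. At an unadjusted p under 0.05, Twsg1 passed with sex as a covariate and without control replicate 1 or mutant replicate 2, and Bmper with the replicate block and without mutant replicate 3. That is 1 of 8 tested members in each of these fits, where 14% of all tested genes passed in the main fit. The share of all genes in these fits was not counted, so the passes are no result about the members. Direction was not settled for the rest. Without 1 library the log2 fold change ran from -0.031 to 0.24 for Nog, -0.20 to 0.33 for Grem1, -0.29 to 0.73 for Fst and -0.032 to 0.078 for Crim1, and with limma-voom that of Grem1 was -0.012. That of Bmp1 ran from -0.039 to 0.10 and was -0.0031 with upper-quartile factors. Chrdl1 could be fitted with no low-count filter, where its log2 fold change was -1.57 (edgeR adjusted p = 0.642).

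Over all genes 288 rose and 200 fell, against 445 and 302 in DESeq2, and 131 to 257 and 80 to 204 without 1 library, the lowest counts without mutant replicate 2. Among the other modulators 0 fell, against 1 in DESeq2 and 1 with the replicate block, and 0 to 1 without 1 library. Among ligands 1 fell, against 0 with the replicate block and 0 to 1 without 1 library. Among receptors 2 fell, against 3 in DESeq2 and 3 with upper-quartile factors, and 1 to 2 without 1 library. Among targets 0 rose and 4 fell, against 1 higher in DESeq2, with no low-count filter and with the replicate block. In DESeq2 and with no low-count filter 5 targets fell. Without 1 library 0 to 1 were higher and 1 to 4 lower. The cause of these shifts was not tested, beyond the fewer libraries fitted. The replicate numbers were not taken as pairs, since deviations of same-numbered libraries correlated by 0.0064, 0.0274 and 0.2342 over 12263 genes, and 2 of 6 libraries correlated best with their own number. With that block, 281 genes rose and 185 fell.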
